A study of Homo sapiens with 2 samples.

Results

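The genes described are 10 transcription factor and immediate early genes, chosen by name: the AP-1 genes JUN, JUNB, JUND, FOS, FOSB, FOSL1 and FOSL2, together with EGR1, IER2 and NR4A1. All 10 were listed in both libraries, out of 19316 genes listed in either. AP-1 is a dimer of basic leucine zipper proteins. JUN proteins can pair with one another or with a FOS protein, FOS proteins need a JUN partner, and the dimers bind DNA elements that include TGACTCA. Most of these genes are immediate early genes, which are transcribed within minutes of a growth factor or stress signal without new protein synthesis, and JUN proteins are also phosphorylated by JNK kinases, which lie downstream of frizzled receptors in noncanonical Wnt signalling.

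SNU449 is an established line of human liver cancer cells, and its RNA was taken 7 days after lentivirus carrying an shRNA was added. The groups received an FZD2 shRNA (labelled as FZD2 deficiency) or a negative control shRNA, and each group held 1 library, so no value has a replicate error and no difference could be tested. FZD2 belongs to the frizzled family of Wnt receptors. Both groups were cultured and transduced alike per the labels, which do not name the shRNA sequences or say whether cells were selected.

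The FZD2 shRNA library held 8234592 expected counts and the control library 8436870. FZD2 itself was at 15.76 FPKM with its shRNA and at 59.45 FPKM with the control shRNA, 3.61-fold lower on FPKM + 1, in the direction of the labels. FPKM is a fragment count scaled to transcript length and library size, and sizes are log2 ratios of FPKM + 1, FZD2 shRNA over control. Differences of low genes are understated on this scale. Measured genes are those with 1 FPKM or more in either library, and a gene was called where the ratio reached 2-fold. Among 14377 measured genes, 15.2% were called higher and 7.41% lower, and the median ratio was -0.004. Of genes with shared reads, meaning an expected count with a fractional part, 29.7% were called higher. Of genes without them 4.19% were called higher and 10.2% lower. FZD2 itself had shared reads, with expected counts of 503.28 with its shRNA and 1949.91 in the control. Of 15 hepatocyte markers 5 were measured: KRT8, KRT18, FGA, FGB and FGG. ALB was at 0.05 FPKM with the FZD2 shRNA and unlisted in the control, and APOB and TTR were unlisted in both. One growth label calls the cells prostate. Of 10 prostate markers 5 were measured, ACP3, HOXB13 and PSCA among them, and their list summed to 20.12 FPKM with the FZD2 shRNA and 17.67 FPKM in the control, while KLK2, KLK3, TMPRSS2 and FOLH1 were unlisted in both libraries. The leukocyte markers summed to 94.26 FPKM with the FZD2 shRNA and 27.79 FPKM in the control, of which LYZ made up 71.47 FPKM with the FZD2 shRNA and 12.31 FPKM in the control. Of these 8 markers 4 were measured, while CD3E and NKG7 were unlisted in both. The endothelial markers summed to 2.59 FPKM with the FZD2 shRNA and 0.53 FPKM in the control, with 1 of 7 measured (PECAM1), and the fibroblast markers to 320.8 FPKM with the FZD2 shRNA and 410.32 FPKM in the control, with 3 of 7 measured, all collagens. LYZ and PECAM1 had shared reads. The part of such markers in the values below was not tested.

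The levels of the 10 genes spanned several orders of magnitude in both libraries, and FOSL1, which encodes the FOS family protein FRA-1, was highest in each. In the FZD2 shRNA library the order by FPKM was FOSL1, JUND, IER2, JUN, JUNB, NR4A1, FOSL2, EGR1, FOSB and FOS. In the control library it was FOSL1, JUN, IER2, JUNB, JUND, FOSL2, NR4A1, EGR1, FOSB and FOS. JUND stood in place 2 with the FZD2 shRNA and in place 5 in the control, and NR4A1 in place 6 with the FZD2 shRNA and place 7 in the control. In bulk RNA, fewer cells that express a gene and less RNA per cell cannot be told apart. Neighbours were compared by the ratio of their counts per length, with an exact 95% interval that covers counting error only. In the control library that interval included 1 for JUNB over JUND (1.05, 0.919 to 1.19) and for NR4A1 over EGR1 (1.43, 0.924 to 2.23), so these neighbours could not be ordered at this depth. The narrowest gap in the FZD2 shRNA library was IER2 over JUN, at 1.13 (1.02 to 1.25).

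**Figure D1:**
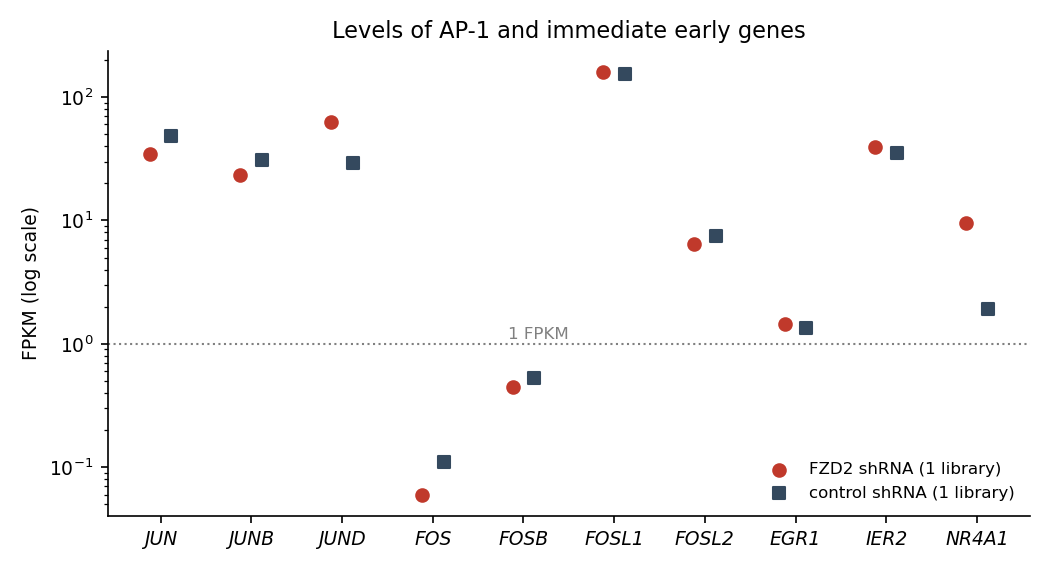
FPKM of the 10 genes on a log scale, in the FZD2 shRNA library (red circles) and the control shRNA library (dark squares), with 1 library per group and therefore no error bars. FOSL1 was highest, at 160.03 FPKM with the FZD2 shRNA and 153.17 FPKM in the control, JUND and NR4A1 were the genes whose red circle lay clearly above the square, and FOS and FOSB lay under 1 FPKM in both.

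Of the 8 measured members, JUND and NR4A1 were called higher, 0 were called lower, and 6 lay between. Set against the background of 15.2% higher and 7.41% lower, 2 calls among 8 genes are too few to say anything of the group as a whole. Of the 7 measured members without shared reads, 1 was called higher (JUND) and 0 lower, beside 4.19% higher and 10.2% lower among such genes. The median of the 8 was 0.07, beside -0.004 over all measured genes. A second reading used the interval of the count ratio, which excluded 1 for JUND and NR4A1 on the higher side and for JUN and JUNB on the lower side. Such intervals excluded 1 for 72.3% of all measured genes (35.5% above and 36.8% below). They hold no spread between cultures or libraries. By that measure 4 of the 8 measured genes is no more than the background.

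**Figure D2:**
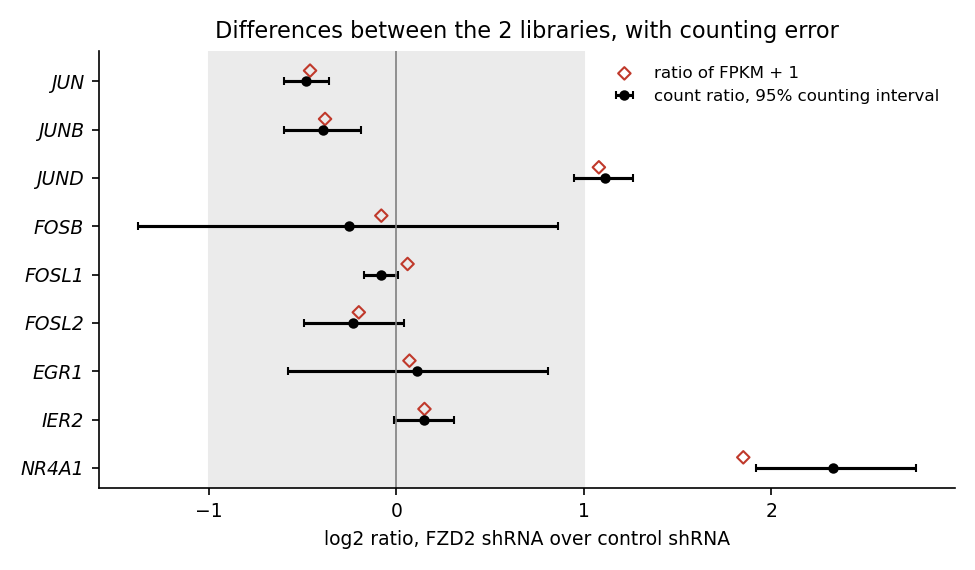
Log2 ratios of FZD2 shRNA over control shRNA for 9 of the 10 genes. Black points are count ratios scaled to library totals with exact 95% counting intervals, red diamonds are ratios of FPKM + 1, and the grey band marks less than 2-fold. NR4A1 (2.33, 1.92 to 2.77) and JUND (1.11, 0.95 to 1.26) lie to the right, JUN (-0.48) and JUNB (-0.39) to the left of 0 inside the band, and FOS, with 1 count with the FZD2 shRNA and 2 counts in the control, is left out.

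The 3 JUN genes differed in direction. JUND, often described as the JUN family gene that is expressed steadily and is least inducible, was at 63.15 FPKM with the FZD2 shRNA and at 29.27 FPKM with the control shRNA. Its expected counts were 1023 with the FZD2 shRNA and 487 in the control, and the log2 ratio was 1.08, or 2.12-fold higher. JUN, the founding AP-1 subunit and a JNK substrate, was at 34.58 FPKM with the FZD2 shRNA and 47.97 FPKM in the control, from 960 counts with the FZD2 shRNA and 1368 in the control, a log2 ratio of -0.46. JUNB, which in many settings restrains JUN-driven transcription, was at 23.38 FPKM with the FZD2 shRNA and 30.63 FPKM in the control, from 353 counts with the FZD2 shRNA and 475 in the control, a log2 ratio of -0.38. JUN and JUNB thus lay below the control by less than 2-fold, and JUND above it. None of the 3 had shared reads. HOOK2, which overlaps JUNB in the RefSeq annotation, was at 5.75 FPKM with the FZD2 shRNA and 5.01 FPKM in the control, and whether counting used strand is not known.

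The summed level of the 3 JUN genes was close in both libraries, at 121.11 FPKM with the FZD2 shRNA and 107.87 FPKM in the control, while its make-up differed. JUND made up 52.1% of the sum with the FZD2 shRNA and 27.1% in the control. JUN made up 28.6% with the FZD2 shRNA and 44.5% in the control. JUNB made up 19.3% with the FZD2 shRNA and 28.4% in the control. JUND was therefore the most abundant JUN family RNA with the FZD2 shRNA, and JUN the most abundant in the control. Ratios between genes of the same library do not depend on how the libraries are scaled. JUND over JUN was 1.83 with the FZD2 shRNA and 0.61 in the control, a log2 change of 1.58 (1.38 to 1.78, exact conditional interval, counting error only). JUND over JUNB was 2.7 with the FZD2 shRNA and 0.956 in the control, a change of 1.5 (1.24 to 1.76). JUN over JUNB was 1.48 with the FZD2 shRNA and 1.57 in the control, and the interval of that change (-0.32 to 0.15) included 0.

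**Figure D3:**
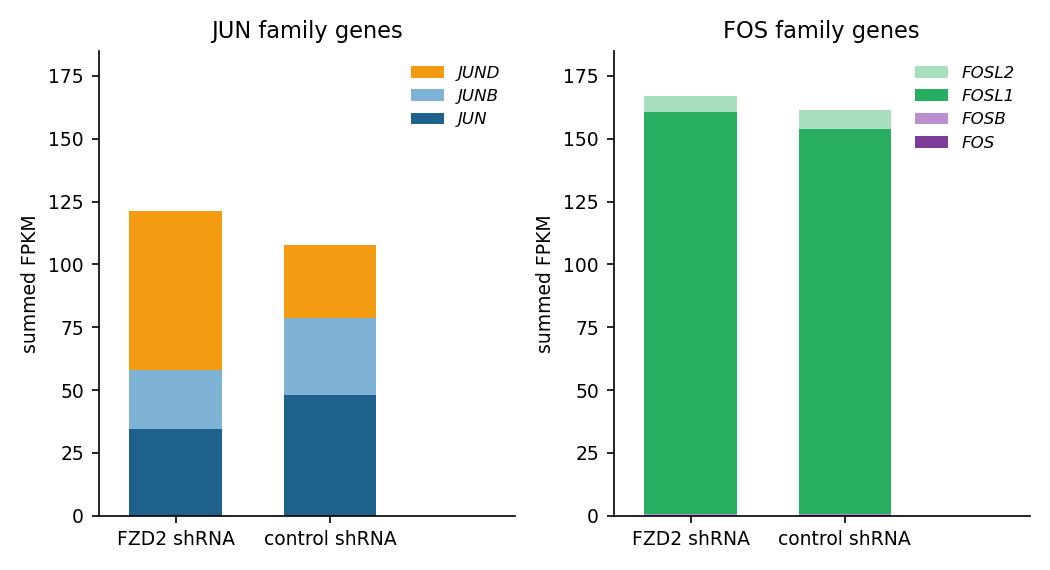
Summed FPKM of the JUN family genes (left) and the FOS family genes (right), with the FZD2 shRNA library left of the control library in each panel and 1 library per bar. JUND (orange) takes 52.1% of the JUN family sum with the FZD2 shRNA and 27.1% in the control, while FOSL1 (dark green) takes 95.8% of the FOS family sum with the FZD2 shRNA and 94.9% in the control, and FOS and FOSB are too low to see.

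The call of JUND did not hold with transcript GC content taken into account. Among genes without shared reads, log2 ratios were higher in genes of higher GC content, and JUND, at 69.7% GC, lay near the upper end, where 44 of 7999 genes in the trend had at least as much. With that trend taken out, while its median over the genes in the trend was kept, JUND was at 0.39, short of 2-fold. JUN (56.7% GC) was at -0.68 and JUNB (64.9% GC) at -0.89. All measured members moved down, by 0.09 (FOSL2) to 0.69 (JUND), and their median went from 0.07 to -0.28. Over the 13810 measured genes with a GC value the median was -0.099, beside -0.004 over all measured genes before. The log2 change of JUND over JUN was then 1.11, and that of JUND over JUNB 1.32. With a pseudocount of 5 FPKM, JUND was at 0.99.

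**Figure D4:**
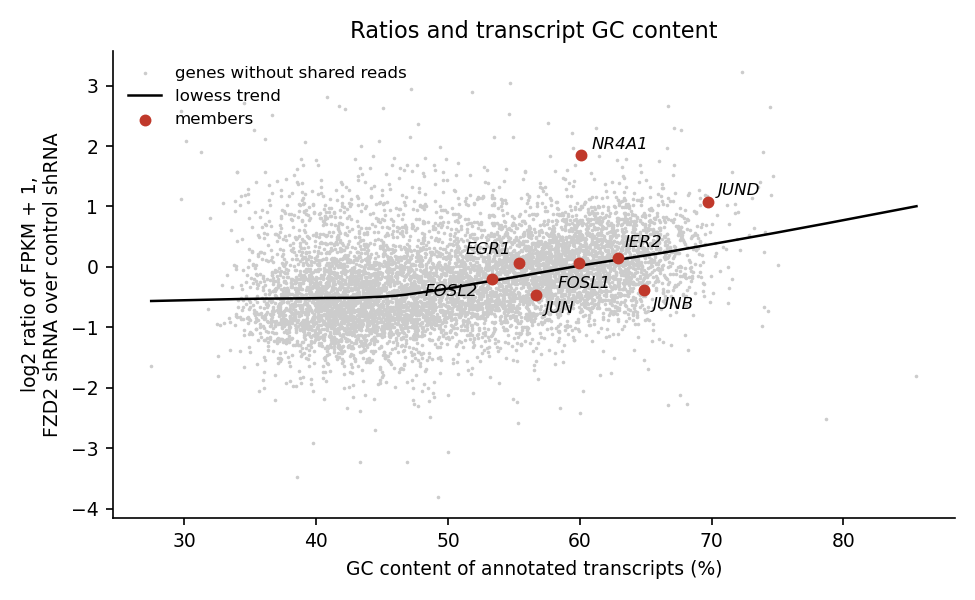
Log2 ratio of FPKM + 1 against the GC content of each gene's annotated transcripts. Grey points are the measured genes without shared reads, the black line is their lowess trend, and red points are the 8 measured members. JUND (69.7% GC, 1.08) and NR4A1 (60.1% GC, 1.85) lie above the line and JUN (-0.46) and JUNB (-0.38) below it, while FOSL1, FOSL2 and IER2 lie close to it.

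The promoters of the 3 JUN genes are shown because these genes, alike in their products, differed in direction. Each is 250 bases upstream of the annotated start, 5′ to 3′, from the RefSeq table of build GRCh38.p14, which is not the submitters' build (hg19). Capitals mark any match, on either strand, to TGACGTCA (the cAMP response element), TGACATCA (a variant of it known from the JUN promoter), TGACTCA (the AP-1 element) or the CArG box, the site of serum response factor SRF. No element among these contains another.
JUND (chr19:18281623-18281872, minus strand): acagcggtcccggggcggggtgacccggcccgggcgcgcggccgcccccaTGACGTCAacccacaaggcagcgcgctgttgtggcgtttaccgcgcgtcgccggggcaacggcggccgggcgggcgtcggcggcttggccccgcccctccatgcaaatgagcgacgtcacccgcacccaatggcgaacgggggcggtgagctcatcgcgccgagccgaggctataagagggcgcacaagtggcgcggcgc
JUN (chr1:58784048-58784297, minus strand): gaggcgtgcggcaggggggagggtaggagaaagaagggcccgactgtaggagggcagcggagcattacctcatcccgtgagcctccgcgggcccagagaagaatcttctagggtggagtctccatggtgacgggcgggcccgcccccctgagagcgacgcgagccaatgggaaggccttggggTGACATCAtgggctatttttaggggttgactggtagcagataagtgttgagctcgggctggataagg
JUNB (chr19:12791236-12791485, plus strand): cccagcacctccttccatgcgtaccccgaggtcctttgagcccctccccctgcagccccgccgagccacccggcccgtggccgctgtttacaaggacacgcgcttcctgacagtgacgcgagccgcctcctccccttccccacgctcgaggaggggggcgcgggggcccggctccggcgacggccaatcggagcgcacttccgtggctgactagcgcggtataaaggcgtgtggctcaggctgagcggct
The JUND window holds TGACGTCA, which 1.65% of 35116 promoter windows of this length hold, and the JUN window holds TGACATCA, which 2.37% hold. The JUNB window holds none of the 4 elements. All 3 windows hold CCAAT, as do 32% of all windows, JUNB alone of the 3 holds TATAAA (10.7% of all windows), and the GC box GGGCGG or its reverse complement occurs 5 times in the JUND window, 2 times in that of JUN and 0 times in that of JUNB. Of all windows 42.6% hold it. The windows were 74.8% GC for JUND, 62% for JUN and 70.8% for JUNB. These matches describe the letters and do not show that any site is used.

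Among the FOS genes, FOSL1 supplied nearly all of the RNA in both libraries. FOSL1 was at 160.03 FPKM with the FZD2 shRNA and 153.17 FPKM with the control shRNA, a log2 ratio of 0.06. Its counts were 1971 with the FZD2 shRNA and 2136 in the control, a log2 count ratio of -0.08 (-0.17 to 0.01), so the sign differed between measures. The length deposited for FOSL1 was 1501.2 bases with the FZD2 shRNA and 1651.14 bases in the control. FOSL2, which encodes FRA-2, was at 6.46 FPKM with the FZD2 shRNA and 7.54 FPKM in the control, from 216 counts with the FZD2 shRNA and 259 in the control, with a count interval of -0.49 to 0.04. FOSL2-AS1, a noncoding gene that overlaps FOSL2, was higher, at 15.83 FPKM with the FZD2 shRNA and 1.44 FPKM in the control, with shared reads. FOSL2 itself had whole counts in both libraries.

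FOS and FOSB, the most rapidly induced FOS genes, were barely detected. FOS had 1 read with the FZD2 shRNA and 2 reads in the control, or 0.06 FPKM with the FZD2 shRNA and 0.11 FPKM in the control, so no fold is given. FOSB had 14 reads with the FZD2 shRNA and 17 in the control, or 0.45 FPKM with the FZD2 shRNA and 0.53 FPKM in the control, and its count interval ran from -1.38 to 0.86. At this depth a 2-fold lower level of FOSB lay within that interval. The 4 FOS genes summed to 167 FPKM with the FZD2 shRNA and 161.35 FPKM in the control, and all 7 AP-1 genes to 288.11 FPKM with the FZD2 shRNA and 269.22 FPKM in the control. FOSL1 over JUN was 4.63 with the FZD2 shRNA and 3.19 in the control, a log2 change of 0.39 in counts (0.24 to 0.55) and of 0.54 in FPKM. With the GC trend taken out, the change in FPKM was 0.41.

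NR4A1, the orphan nuclear receptor also known as Nur77, differed most between the libraries. It was at 9.53 FPKM with the FZD2 shRNA and 1.93 FPKM in the control, a log2 ratio of 1.85, or 3.59-fold higher. Its expected counts were 280.11 with the FZD2 shRNA and 57.38 in the control, a log2 count ratio of 2.33 (1.92 to 2.77). Of all measured genes 3.69% had a higher ratio. Neither count was whole, so NR4A1 belongs to the genes with shared reads, of which 29.7% were called higher, and its level is uncertain by an unknown share. NR4A1AS, an antisense gene that overlaps NR4A1, was unlisted in both libraries. NR4A1 was at 1.5 with the GC trend taken out and at 1.07 with a pseudocount of 5 FPKM. That trend was fitted to genes without shared reads, a class to which NR4A1 does not belong. The median ratio was -0.25 in that class and 0.48 in genes with shared reads. Its relatives NR4A2 and NR4A3 had 2 and 3 reads with the FZD2 shRNA and 2 reads each in the control.

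EGR1, a zinc finger factor induced through SRF, was low and close in both libraries. It was at 1.46 FPKM with the FZD2 shRNA and 1.34 FPKM in the control, from 38 reads with the FZD2 shRNA and 36 in the control, with a count interval of -0.58 to 0.81. IER2, an immediate early gene of nuclear function, was at 39.42 FPKM with the FZD2 shRNA and 35.44 FPKM in the control, from 680 reads with the FZD2 shRNA and 628 in the control, with a count interval of -0.01 to 0.31. Neither interval excluded 0. NR4A1 over EGR1 was 6.53 with the FZD2 shRNA and 1.44 in the control, a log2 change of 2.21 in counts (1.39 to 3.04). IER2 over JUN was 1.14 with the FZD2 shRNA and 0.739 in the control, a log2 change of 0.63 (0.43 to 0.83). With the GC trend taken out, the changes in FPKM were 2.0 for NR4A1 over EGR1 and 0.4 for IER2 over JUN.

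The promoters of NR4A1, the gene with the widest difference, and of EGR1, which differed little, are shown to set the letters beside that contrast. RefSeq gives NR4A1 windows at 2 starts.
NR4A1 start 1 (chr12:52022582-52022831, plus strand): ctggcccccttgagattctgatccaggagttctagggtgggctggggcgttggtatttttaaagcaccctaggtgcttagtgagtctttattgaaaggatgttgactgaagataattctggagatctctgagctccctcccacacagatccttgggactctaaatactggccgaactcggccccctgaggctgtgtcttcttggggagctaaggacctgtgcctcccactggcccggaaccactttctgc
NR4A1 start 2 (chr12:52037465-52037714, plus strand): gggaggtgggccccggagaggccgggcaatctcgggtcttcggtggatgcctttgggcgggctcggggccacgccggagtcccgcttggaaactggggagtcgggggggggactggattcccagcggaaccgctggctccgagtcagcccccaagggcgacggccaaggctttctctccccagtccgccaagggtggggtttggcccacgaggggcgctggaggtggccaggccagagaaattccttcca
EGR1 (chr5:138465229-138465478, plus strand): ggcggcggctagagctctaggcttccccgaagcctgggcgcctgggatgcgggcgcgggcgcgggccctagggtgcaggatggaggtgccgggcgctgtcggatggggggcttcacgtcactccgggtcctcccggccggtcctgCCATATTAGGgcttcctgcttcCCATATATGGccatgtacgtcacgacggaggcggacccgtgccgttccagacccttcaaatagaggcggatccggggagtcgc
The EGR1 window holds the CArG box 2 times, as CCATATTAGG and CCATATATGG, while 1.16% of all windows hold it at all. Neither NR4A1 window holds any of the 4 elements. Of the 10 windows of these genes, over 9 genes, 3 held any of them, namely those of JUND, JUN and EGR1. FOSL1 was the member without a window, since no promoter entry was found for it. The search does not cover starts that have no window here, or elements that lie further upstream or differ in their letters. Genes without a match, FOS among them, may therefore still have such sites.

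Other genes of the pathway were described by their counts. These lists too were made with results of these libraries known. Their counts stand beside 15.2% higher and 7.41% lower over all measured genes, and 4.19% higher and 10.2% lower over those without shared reads. Those shares hold at the 2-fold limit on FPKM + 1 with the 1 FPKM filter, and they differ under alternatives. Ratios below 0 were held by 50.1% of all measured genes and by 64.7% of those without shared reads. Ranges of a count are over the 10 alternatives that keep the 2-fold limit and genes with shared reads. Of 11 measured AP-1 and basic leucine zipper partners out of 15, 2 were lower (range 0 to 2) and 0 higher, at a median of -0.41, and 10 lay below 0. The lower genes were ATF1, a CREB relative (1.83 FPKM with the FZD2 shRNA and 6.43 FPKM in the control, log2 -1.39), and JDP2, a JUN partner that represses AP-1 (3.26 FPKM with the FZD2 shRNA and 8.14 FPKM in the control, -1.10). MAFF, a small MAF protein, was at 19.64 FPKM with the FZD2 shRNA and 11.97 FPKM in the control (0.67, shared reads), and ATF3, a stress-induced factor, at 2.25 FPKM with the FZD2 shRNA and 4.09 FPKM in the control (-0.65). Of 22 measured immediate early genes besides the members, out of 28, 1 was higher and 3 were lower, with a median of -0.67, and 18 of the 22 lay below 0. Of these 22 genes 21 had no shared reads. The number lower ran from 2 with a pseudocount of 5 FPKM to 8 with DESeq2 size factors, and was 7 with a pseudocount of 0.1 FPKM, 7 in CPM and 6 with TMM. Over all measured genes the number lower was 1066, against 301 with a pseudocount of 5 FPKM and 1503 with DESeq2 size factors. It was 1749 with a pseudocount of 0.1 FPKM, 1454 in CPM and 1395 with TMM, out of 14377. Among the 22, KLF6, a zinc finger factor, was the higher one, at 102.04 FPKM with the FZD2 shRNA and 28.49 FPKM in the control (1.80). The lower ones were MYC (25.28 FPKM with the FZD2 shRNA and 65.44 FPKM in the control, -1.34), PPP1R15A, which directs eIF2α dephosphorylation (40.52 FPKM with the FZD2 shRNA and 100.42 FPKM in the control, -1.29), and ZFP36, which promotes decay of AU-rich mRNAs (2.77 FPKM with the FZD2 shRNA and 7.49 FPKM in the control, -1.17).

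Of 26 measured kinases upstream of AP-1, 1 was higher and 2 were lower, with a median of -0.27, and 20 lay below 0. The counts were 3 higher and 1 lower in TPM, and 2 higher and 5 lower with DESeq2 size factors. Over all measured genes they were 2913 higher and 913 lower in TPM, and 2394 higher and 1503 lower with DESeq2 size factors. MAP2K1, which encodes the ERK kinase MEK1, was at 5.88 FPKM with the FZD2 shRNA and 18.72 FPKM in the control (-1.52), and MAP2K3, a p38 kinase kinase, at 15.21 FPKM with the FZD2 shRNA and 31.57 FPKM in the control (-1.01). MAPK13, a p38 kinase with shared reads, was the higher one, at 13.55 FPKM with the FZD2 shRNA and 2.76 FPKM in the control (1.95). Of the JNK genes, MAPK8 (3.23 FPKM with the FZD2 shRNA and 6.44 FPKM in the control) and MAPK9 (5.5 FPKM with the FZD2 shRNA and 10.42 FPKM in the control) were both at -0.81, while MAPK10 was at 1.65 FPKM with the FZD2 shRNA and 2.01 FPKM in the control (-0.18, shared reads). MAP2K7, which encodes a JNK kinase, was at 19.29 FPKM with the FZD2 shRNA and 9.96 FPKM in the control (0.89). Of 13 measured factors that act on immediate early promoters, 2 were lower (range 0 to 3) and 0 higher, at a median of -0.48, and 11 lay below 0. They were ATF1 and YY1 (8.72 FPKM with the FZD2 shRNA and 18.8 FPKM in the control, -1.03). MRTFB, an SRF coactivator, was at 0.76 FPKM with the FZD2 shRNA and 1.79 FPKM in the control (-0.66), and CREB1 at 3.43 FPKM with the FZD2 shRNA and 5.9 FPKM in the control (-0.64, shared reads). The 2 genes above 0 were STAT3, at 55.8 FPKM with the FZD2 shRNA and 35.53 FPKM in the control (0.64, shared reads), and SRF, at 13.19 FPKM with the FZD2 shRNA and 8.31 FPKM in the control (0.61).

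Of 14 measured MAPK feedback inhibitors, 2 were lower (range 0 to 4) and 0 higher, at a median of -0.57, with 8 below 0 and 6 above. SPRY2 was at 4.29 FPKM with the FZD2 shRNA and 11.68 FPKM in the control (-1.26), and SPRED2 at 1.46 FPKM with the FZD2 shRNA and 4.48 FPKM in the control (-1.16). DUSP5, a nuclear ERK phosphatase, was at 13.65 FPKM with the FZD2 shRNA and 27.5 FPKM in the control (-0.96, shared reads), and SPRY4 at 1.02 FPKM with the FZD2 shRNA and 2.62 FPKM in the control (-0.84). The highest ratio was that of SPRED3, at 2.78 FPKM with the FZD2 shRNA and 1.41 FPKM in the control (0.65, shared reads). Of 25 measured AP-1 target genes out of 29, 5 were lower (range 4 to 7) and 0 higher, at a median of -0.34, with 15 below 0 and 10 above. Among the 13 of them without shared reads 2 were lower. VEGFA was at 8.06 FPKM with the FZD2 shRNA and 25.79 FPKM in the control (-1.56), and CXCL8, which encodes interleukin-8, at 14.5 FPKM with the FZD2 shRNA and 38.97 FPKM in the control (-1.37). ITGB1 (238.35 FPKM with the FZD2 shRNA and 585.33 FPKM in the control, -1.29) and HMGA1 (179.8 FPKM with the FZD2 shRNA and 385.81 FPKM in the control, -1.10) were also lower, and both had shared reads. Of 7 measured corepressors and partners of EGR and NR4A proteins, 0 were called, with a median of -0.13, and the EGR corepressor gene NAB1 was at 2.9 FPKM with the FZD2 shRNA and 6.31 FPKM in the control (-0.91). The others named there were SP1 (-0.69), NAB2 (-0.30) and RXRA (0.28). Of the 17 genes called in these lists, ATF1 being in 2 of them, 10 were still called with a pseudocount of 5 FPKM (not JDP2, ATF1, ZFP36, MAP2K3, YY1, SPRY2 and SPRED2), 13 in TPM (MAP2K3, YY1 and HMGA1 being among those lost) and 16 with the GC trend taken out (not YY1). The medians stand beside -0.004 over all measured genes and -0.25 over those without shared reads.

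**Figure D5:**
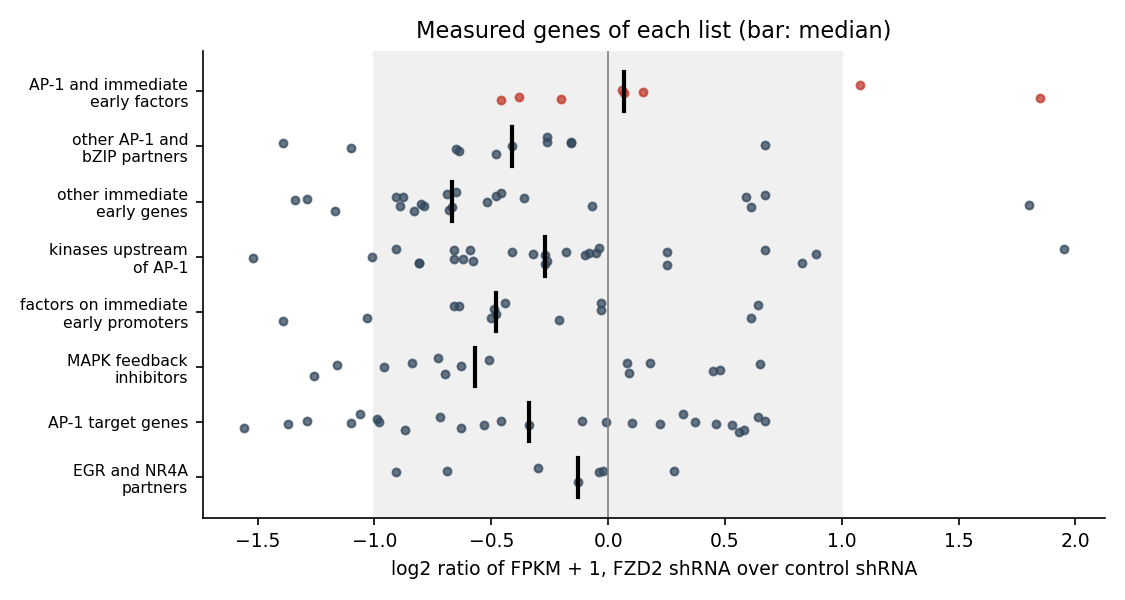
Log2 ratios of FPKM + 1, FZD2 shRNA over control, for the measured genes of each list, with members in red, other lists in dark blue, medians as black bars and the grey band marking less than 2-fold. The 8 measured members have a median of 0.07 with JUND and NR4A1 past 2-fold, and the other lists have medians from -0.67 (other immediate early genes) to -0.13.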

How the data were processed

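RNA was measured in 2 libraries. Oligo(dT) beads selected poly(A) RNA, which was fragmented and reverse transcribed from random primers, per the labels' protocols. Per the submitters' processing notes, Bowtie2, HISAT and hg19 were used, in roles not given. Not given in the sources used here: counting program, annotation and strand setting. The authors deposited expected counts, which estimate the reads of each gene and are not normalized. The FPKM values deposited by the authors are, per the file headers, scaled to length and library size. The deposited files also give a length per gene in bases.

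Genes unlisted in a library were set to 0. Symbols came from the RefSeq gene table (GRCh38.p14), and 87 listed genes had none. Ratios used a pseudocount of 1 FPKM, a filter of 1 FPKM and a limit of 2-fold. Intervals of count ratios (95%) are exact conditional binomial intervals on rounded counts, scaled to totals, and cover counting error only, since reads are not independent molecules. In this design 3 counts are 0.364 CPM with the FZD2 shRNA and 0.356 CPM in the control. A count was whole within 0.001. GC content came from GENCODE transcripts matched by RefSeq accession (96.1% of measured genes), with a lowess trend (fraction 0.3). The members and lists were chosen with earlier results of these data known. The genes named are FZD2, the 10 members and up to 4 measured genes per list with the largest ratio in size, besides MAPK8, MAPK9, MAPK10, MAP2K7, STAT3, SRF, SPRED3, NR4A2, NR4A3, FOSL2-AS1, HOOK2 and some markers, which were chosen after their values were seen; some genes of the lists are not reported here. With 2 libraries a pattern is a single ratio, so no genes of like pattern were sought. The rules were tested on simulated counts with counting error only, with planted differences larger than the limit, scored in genes of higher counts. That simulation held no shared reads, GC trend or spread between cultures, so it cannot test the calls of JUND and NR4A1. Alternatives were 2 other pseudocounts, 2 other filters, TPM, a median of 0, CPM, TMM (edgeR 4.0.16), DESeq2 1.42.0 size factors, other limits, the GC trend and genes without shared reads. The CPM, TMM and DESeq2 settings took counts without length scaling and a pseudocount of 1 CPM. Analyses used R 4.3.3 and Python 3.11.15 with SciPy 1.17.1, statsmodels 0.14.6, pandas 2.3.3 and NumPy 2.4.6.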

Additional observations from a re-analysis of the deposited data

How the results depend on the processing

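NR4A1 and JUND were the members called higher, and 0 were called lower. The number higher was 1 with a pseudocount of 5 FPKM (NR4A1, with JUND at 0.99), 1 with the GC trend taken out (NR4A1, with JUND at 0.39), 1 among genes without shared reads (JUND, since NR4A1 is left out) and 0 at a limit of 4-fold. The number lower was 2 (JUN and JUNB) where the counting interval had to exclude 1. Over all genes, 3254 were called in either direction, against 1242 with a pseudocount of 5 FPKM, 6864 at a limit of 1.5-fold, 441 at 4-fold, 10399 by the counting interval and 1177 without shared reads. Without shared reads, 342 were higher and 835 lower, against 2188 higher and 1066 lower over all, so the balance of directions turned. A larger pseudocount shrinks ratios by construction. Why ratios differed with GC content and with shared reads was not tested. Under the other alternatives run, both counts of members stayed as given. Across alternatives JUND ranged from 0.39 to 1.25, NR4A1 from 1.07 to 2.25, JUN from -0.68 to -0.31 and JUNB from -0.89 to -0.23, each with 1 sign throughout, as did FOSL2 (-0.29 to -0.06). FOSL1 (-0.28 to 0.22), IER2 (-0.30 to 0.31) and EGR1 (-0.10 to 0.20) changed sign. IER2 and EGR1 were below 0 only with the GC trend taken out. FOSL1 was below 0 in 4 of 14 alternatives: CPM, TMM, DESeq2 size factors and the GC trend. The other filters, the other limits, the counting interval and the set without shared reads keep each gene's ratio as it was. Those alternatives could therefore not change a sign, for FOSL1 or for any other member. TPM moved the median of all measured genes to 0.138. Of 196 counts of the other lists under alternatives, 130 were within 1.5 times the main count and 66 were not. A count of 0 that stayed at 0 was taken as within. Leaving out the filter cannot change a call on FPKM + 1, and other alternatives change the limit itself. The tally is therefore no measure of how stable the lists are. EGR1 had no value with a filter of 5 FPKM. No paired analysis was possible because each group holds 1 library, and none could be left out. Depth limits FOS, FOSB and EGR1.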
